A study of Rattus norvegicus with 8 samples.

Results

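Chloride intracellular channel (CLIC) genes are the subject here: Clic1, Clic2, Clic3, Clic4, Clic5 and Clic6, which are 6 of the 31699 rows of a gene table from rat annulus fibrosus cells (AFCs). The family was selected on measured values, since Clic2 was among the largest falls between the groups compared here, so the values of Clic2 are a description and carry no test. The other 5 members were taken by family name. All 6 had 1 row each, and 4 of them, Clic1, Clic2, Clic4 and Clic5, passed the filter of a mean of at least 1 TPM (reads scaled for transcript length and library total) and entered the test.

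CLIC proteins are unusual among channel proteins because they exist as soluble proteins with a glutathione transferase fold and can also insert into membranes. CLIC1, CLIC4 and CLIC5 work beside ezrin, radixin and moesin, the proteins that tie the actin cortex to the plasma membrane, and CLIC4 also moves to the nucleus and acts in TGF-beta signalling. CLIC2 binds ryanodine receptors, the calcium release channels of the endoplasmic reticulum, CLIC3 was found as a partner of an ERK-type kinase, CLIC5 is needed in the stereocilia of inner ear hair cells, and CLIC6 interacts with dopamine D2-like receptors.

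RNA-seq compared AFCs of Sprague Dawley rats, the cells of the fibrous ring of the intervertebral disc, in 4 Lv-Ctrl and 4 Lv-Piezo1 samples. Lv-Ctrl cells carried the empty lentiviral vector pLVX-shRNA-Puro and Lv-Piezo1 cells the same vector with a short hairpin RNA against Piezo1, a mechanically gated cation channel. Cells of both groups were under cyclic mechanical stretch (CMS), so no unstretched cells entered the comparison, and the age of the animals was not given in the labels. The cells were third-generation cultures from annulus tissue pooled over several rats per isolation, 1 hairpin was used, and p-values measure only the spread between these samples.

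The Piezo1 transcript, the target of the hairpin, went against the label. The study itself reports that the knockdown by Lv-Piezo1 had been verified. Piezo1 (ENSRNOG00000056786) was at 31.1, 33.0, 26.7 and 29.5 TPM in Lv-Ctrl and at 38.1, 37.7, 40.2 and 41.4 TPM in Lv-Piezo1. All Lv-Piezo1 samples were above all Lv-Ctrl samples, with a log2 fold change of 0.38 (SE 0.06, limma adjusted p = 8.6e-04, by Benjamini-Hochberg over the 13103 genes tested). Every direction below is therefore given by label, as Lv-Piezo1 relative to Lv-Ctrl. Across all tested genes the median log2 fold change was 0.14, and it moved to -0.0046 when the samples were rescaled by the median ratio, so small rises are read against that shift. In bulk samples, fewer cells of a type and less RNA per cell cannot be told apart.

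The annotated starts of Clic4 and Clic5 are shown because these 2 members moved in opposite directions and each lies directly beside a Runx gene. Each window holds the 300 bases around the RefSeq start on build GRCr8, most of them upstream, written 5′ to 3′ on the gene's strand. Capitals mark matches, on either strand, to a GC box (GGGCGG) or to the letters TGNGGT found in RUNX binding sites. Clic4 lies at chr5:152797069-152797368 and Clic5 at chr9:24310915-24311214, both on the minus strand.
Clic4: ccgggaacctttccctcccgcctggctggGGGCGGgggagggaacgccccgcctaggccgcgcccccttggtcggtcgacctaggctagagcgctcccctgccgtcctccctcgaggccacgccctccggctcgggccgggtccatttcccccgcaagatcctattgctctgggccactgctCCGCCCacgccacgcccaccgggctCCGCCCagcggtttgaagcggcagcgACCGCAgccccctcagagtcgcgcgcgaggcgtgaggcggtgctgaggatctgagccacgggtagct
Clic5: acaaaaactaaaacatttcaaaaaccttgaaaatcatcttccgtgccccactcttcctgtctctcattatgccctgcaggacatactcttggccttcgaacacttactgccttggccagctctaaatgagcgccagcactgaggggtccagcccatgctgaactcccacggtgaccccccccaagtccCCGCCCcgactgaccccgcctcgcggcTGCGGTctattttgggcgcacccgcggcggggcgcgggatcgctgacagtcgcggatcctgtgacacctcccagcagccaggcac

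The Clic4 window was 73% G and C and held 33 CG dinucleotides, 3 GC boxes and 1 TGNGGT match, and 95.1% of the 33469 RefSeq windows of this length had a lower GC content. The Clic5 window was 59.7% G and C and held 19 CG dinucleotides, 1 GC box and 1 TGNGGT match. Neither held TATAAA or CCAAT, which 14.2% and 37.5% of all windows held. GGGCGG was in 33.1% and TGNGGT in 47.1% of all windows, and the median window had 51.7% G and C and 7 CG dinucleotides. These matches are a description of letters, not of binding.

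Among the 4 tested members, Clic2 and Clic5 were lower, Clic4 was higher by less than the fold threshold, and Clic1 did not pass the test. Calls needed both an adjusted p below 0.05 and a log2 fold change of 1 or more in either direction. By this rule 2 of the 4 members were called, both lower, against 7.67% of all tested genes called in either direction, 2.76% called lower and 4.91% called higher. The fall of Clic2 chose the family and reads as no support, which leaves 1 of 3 tested members called on values not used for the choice. At an adjusted p alone, with Clic2 left out, Clic4 and Clic5 passed and Clic1 did not, against 58.2% of all tested genes passing. The groups were apart for Clic4 and Clic5 and overlapped for Clic1, and they were apart for 54.2% of all tested genes. A shift without overlap was thus the usual state of a gene in this comparison.

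**Figure D1:**
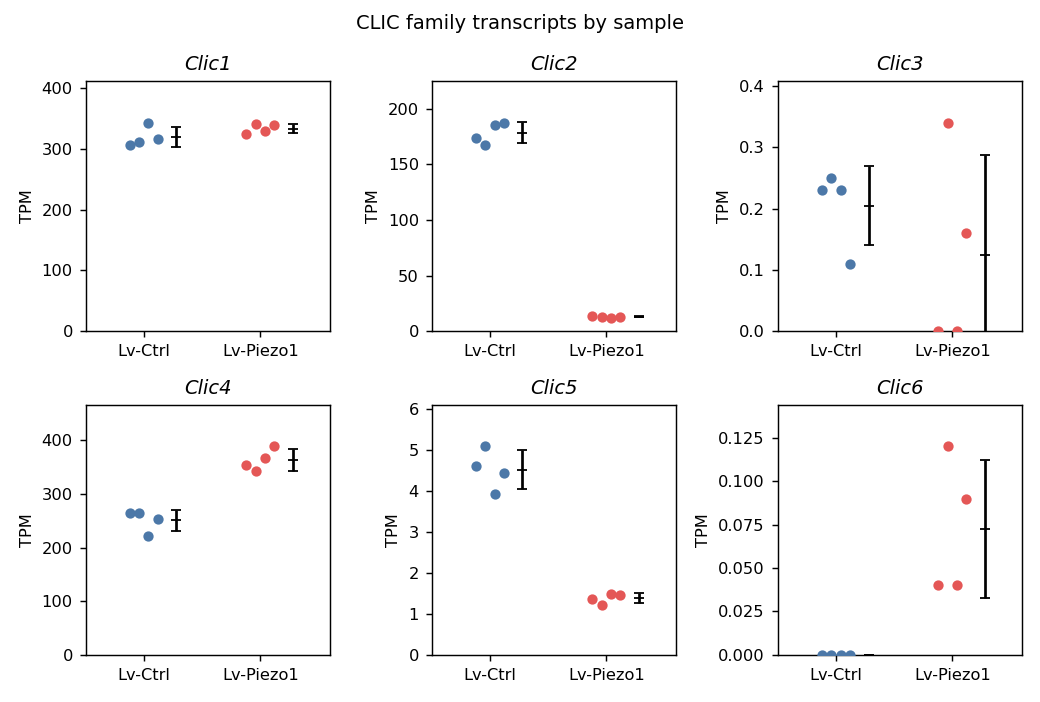
TPM of the 6 CLIC genes in each sample, with each axis starting at 0 and its own scale; points are samples and the bars to their right give the mean ± SD (n = 4). Clic2 and Clic5 are lower in every Lv-Piezo1 sample than in any Lv-Ctrl sample, Clic4 is higher in every one, Clic1 overlaps, and Clic3 and Clic6 stay below 1 TPM.

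Clic1 (ENSRNOG00000029682), the most widely expressed member of the family, was at 306.41, 310.36, 342.61 and 316.09 TPM in Lv-Ctrl and at 324.45, 340.42, 328.75 and 338.06 TPM in Lv-Piezo1. The groups overlapped, because Lv-Ctrl replicate 3 was above every Lv-Piezo1 sample. The means were 319 ± 16.3 and 333 ± 7.57 TPM (SD, n = 4). The log2 fold change of Clic1 was 0.06 (95% interval -0.03 to 0.15, adjusted p = 0.2 from limma), and it turned to -0.10 (adjusted p = 0.19) under median-ratio scaling. Lv-Ctrl replicate 3 decided the call at the adjusted p, which was 0.014 with a log2 fold change of 0.098 when that sample was left out.

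Clic4 (ENSRNOG00000018109), which in fibroblasts takes part in TGF-beta responses, was at 264.31, 264.52, 222.18 and 253.38 TPM in Lv-Ctrl and at 353.35, 342.13, 367.95 and 388.64 TPM in Lv-Piezo1. The lowest Lv-Piezo1 sample was above the highest Lv-Ctrl sample. The mean rose 1.45-fold, from 251 ± 19.97 to 363 ± 20.1 TPM (SD, n = 4). The log2 fold change was 0.53 (SE 0.06, adjusted p = 8.7e-05 from limma), and the exact two-sided permutation test gave p = 0.029, the smallest that the 70 relabelings of 4 against 4 samples allow. Clic4 was below the fold threshold and so was not called. Of the 16 alternatives run for it, the filters, moderation and replicate block cannot move a log2 fold change. Under the others that of Clic4 stayed between 0.37 and 0.56.

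Clic2 (ENSRNOG00000000728), the ryanodine receptor partner, was at 173.93, 167.01, 185.68 and 187.3 TPM in Lv-Ctrl. In Lv-Piezo1 it was at 13.39, 13.05, 12.17 and 12.84 TPM. Both groups were tight, with a coefficient of variation of 5.43% in Lv-Ctrl and 4.00% in Lv-Piezo1, and no Lv-Piezo1 sample came near any Lv-Ctrl sample. The mean was 178 ± 9.69 TPM in Lv-Ctrl and 12.9 ± 0.514 TPM in Lv-Piezo1 (SD, n = 4), which is 13.9-fold lower. On the log2(TPM + 1) scale the difference was -3.69 (SE 0.05), the seventh lowest of the 13103 genes tested. By mean TPM, Clic2 was at place 788 of the tested genes in Lv-Ctrl and at place 6910 in Lv-Piezo1. Clic2 remained detected in every Lv-Piezo1 sample, above Clic5, Clic3 and Clic6.

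Clic5 (ENSRNOG00000047218), which links the membrane to the actin core of stereocilia, was a low transcript. It was at 4.62, 5.09, 3.93 and 4.45 TPM in Lv-Ctrl and at 1.36, 1.23, 1.48 and 1.47 TPM in Lv-Piezo1. The groups were far apart relative to their spread, and the mean fell 3.27-fold, from 4.52 ± 0.479 to 1.39 ± 0.117 TPM (SD, n = 4). The log2 fold change was -1.21 (SE 0.09, 95% interval -1.42 to -0.999, adjusted p = 5.4e-06 from limma), and the exact two-sided permutation p was 0.029. On this scale the added 1 TPM understates the fall of a low gene, and with a pseudocount of 0.1 the log2 fold change was -1.64. Clic5 had a mean of 2.95 TPM over the 8 samples, so it was not tested when a mean of at least 5 TPM was required.

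Clic3 and Clic6, members best known from epithelia, were at the floor of the table. Clic3 (ENSRNOG00000015184) was at 0.23, 0.25, 0.23 and 0.11 TPM in Lv-Ctrl and at 0, 0.34, 0 and 0.16 TPM in Lv-Piezo1, so the groups overlapped. Clic6 (ENSRNOG00000026870) was listed at 0 in the 4 Lv-Ctrl samples and at 0.04, 0.12, 0.04 and 0.09 TPM in Lv-Piezo1. Neither passed the filter, and no fold is given for either.

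The order of the levels differed between the groups at 1 place, the top. In Lv-Ctrl the order by TPM was Clic1, Clic4, Clic2, Clic5, Clic3 and Clic6, and no neighbours in it had overlapping ranges. In Lv-Piezo1 Clic4 stood above Clic1, with the lowest Clic4 sample at 342.13 and the highest Clic1 sample at 340.42 TPM, and only the ranges of Clic3 and Clic6 overlapped. Within a sample, the ratio of Clic4 to Clic1 was 0.648 to 0.863 in Lv-Ctrl and 1.01 to 1.15 in Lv-Piezo1, a comparison that no rescaling of a sample can move.

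The summed TPM of the family was 753 ± 6.26 in Lv-Ctrl and 710 ± 21.9 in Lv-Piezo1 (SD, n = 4), with ranges of 747 to 761 and 693 to 741. Clic2 made up 23.7% of this sum in Lv-Ctrl and 1.81% in Lv-Piezo1. Clic4 made up 33.3% and 51.1%, Clic1 42.3% and 46.9%, and Clic5 0.601% and 0.195%. The ratio of Clic1 to Clic2 was 1.69 to 1.86 in Lv-Ctrl and 24.2 to 27.0 in Lv-Piezo1. The pool thus went from 3 abundant members to 2, while its sum differed by less than the rise of Clic4 or the fall of Clic2. Because the sum contains Clic2, these shares are a description.

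**Figure D2:**
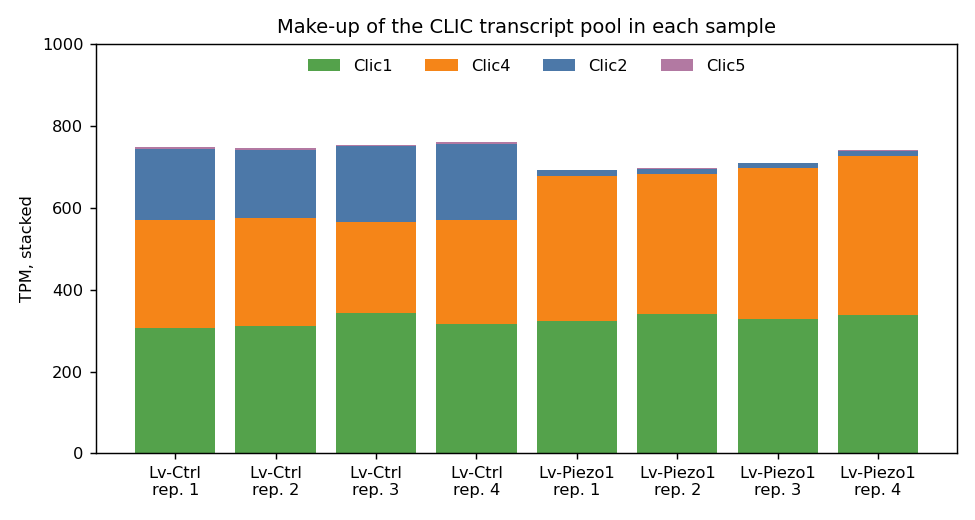
Stacked TPM of Clic1, Clic4, Clic2 and Clic5 in each of the 8 samples; Clic3 and Clic6 are too low to show. The Clic2 segment is 23.7% of the family sum in Lv-Ctrl and 1.81% in Lv-Piezo1, and the Clic4 segment grows from 33.3% to 51.1%.

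The genes most like each member over the 8 samples were found by the root mean square distance between centred log2(TPM + 1) profiles, where 0 is an identical profile. For Clic2 the 5 nearest named genes were Gpr83, a G protein-coupled receptor, at 0.186, Olr1684, an olfactory receptor gene, at 0.211, Il1rl1, the interleukin 33 receptor, at 0.243, Apoe, the lipid carrier apolipoprotein E, at 0.278 and Crisp3, a secreted cysteine-rich protein, at 0.312. Gpr83 went from a mean of 22.1 to 1.02 TPM, Il1rl1 from 444 to 30.9 TPM and Apoe from 203 to 21.7 TPM. Crisp3 went from 11.3 to 0.428 TPM. On this scale the added 1 TPM understates the falls of low genes. With a pseudocount of 0.1 the log2 fold change was -3.78 for Clic2, -4.35 for Gpr83, -6.17 for Olr1684 and -4.49 for Crisp3. For Il1rl1 and Apoe it was -3.83 and -3.22. The 5 genes were picked for their likeness to Clic2, so their falls carry no test.

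For Clic4 the nearest were Itgb1 and Itga5, the subunits of the fibronectin receptor, at distances of 0.021 and 0.022, and Cherp, a calcium homeostasis protein, at 0.025. The mean of Itgb1 was 451 TPM in Lv-Ctrl and 656 in Lv-Piezo1, and that of Itga5 98.4 and 145 TPM. For Clic5 they were Sned1, an extracellular matrix glycoprotein, at 0.028, Hhipl1 at 0.050 and Dsc3, a desmosomal cadherin, at 0.053, and the mean of Sned1 was 7.59 and 2.70 TPM. For Clic1 they were Ciao1, Tmem101 and Cct8, at 0.020 to 0.025, which like Clic1 overlapped between the groups.

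Tmlhe and Olr1684, which both fell, lie near Clic2 in the genome. In the RefSeq order of protein-coding genes on chromosome 20 of build GRCr8, Tmlhe, which encodes the first enzyme of carnitine synthesis, lies directly before Clic2, and olfactory receptor genes follow it. Tmlhe (ENSRNOG00000000729) was at 10.9, 11.05, 10.52 and 10.39 TPM in Lv-Ctrl and at 6.19, 6.56, 6.71 and 7.54 TPM in Lv-Piezo1. No samples overlapped, and its log2 fold change was -0.60 (SE 0.06, adjusted p = 4.3e-05 from limma), a fall under every scaling and well short of that of Clic2.

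Olr1684 (ENSRNOG00000040183, Or2h15 in RefSeq) is 13 protein-coding genes past Clic2. It was at 9.83, 10.92, 8.02 and 11.25 TPM in Lv-Ctrl and at 0.09, 0.02, 0.01 and 0.05 TPM in Lv-Piezo1. Of the 12 genes between the pair, 6 had 1 row in the table and none of these was above 0.1 TPM in any sample, while Olr1675 had several rows, all at 0. Transcripts of olfactory receptor genes were rare in these cells in general, with 6 of 1076 such rows at a mean of at least 1 TPM. The gene order was looked up after the likeness of Olr1684 to Clic2 on the log2(TPM + 1) scale had been seen. The assembly behind the table is uncertain, and whether the rows share transcripts was not tested.

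**Figure D3:**
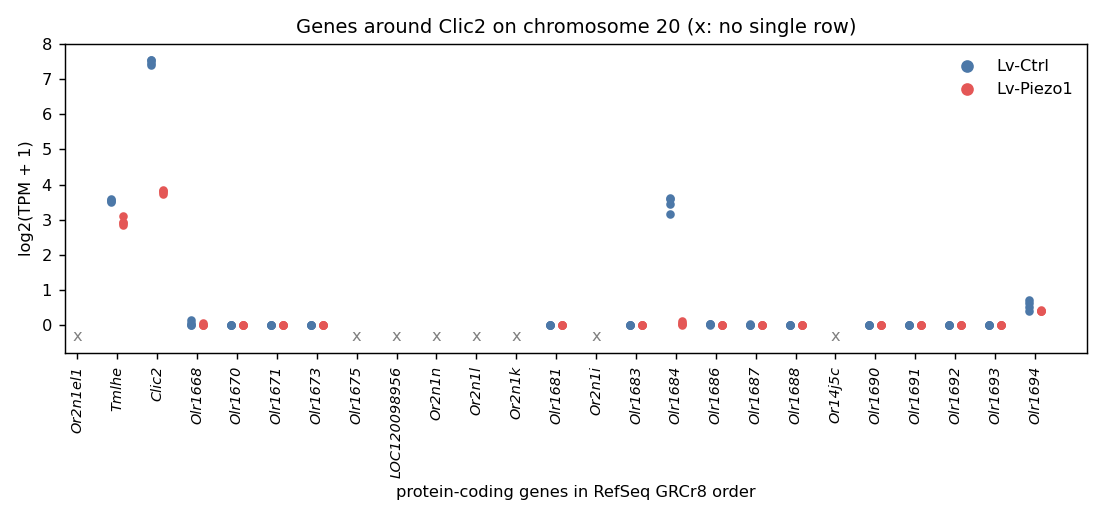
log2(TPM + 1) of each sample for protein-coding genes around Clic2, in RefSeq GRCr8 order from left to right without distances; x marks genes with no row or several rows in the table. Tmlhe, Clic2 and Olr1684 are lower in Lv-Piezo1, and the other genes shown are below 1 TPM in every sample.

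Clic4, Clic5 and Clic6 each lie directly beside a Runx gene and near an Rcan gene, on chromosomes 5, 9 and 11 in RefSeq. Runx genes encode transcription factors of blood, bone and cartilage, and Rcan genes encode regulators of the phosphatase calcineurin. Between the Clic gene and the Rcan gene lie 3 protein-coding genes for Clic4, 2 for Clic5 and 0 for Clic6.

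Beside Clic5, Runx2 was at 6.0, 6.1, 4.88 and 5.61 TPM in Lv-Ctrl and at 7.07, 7.54, 8.76 and 7.54 TPM in Lv-Piezo1. It was higher in every Lv-Piezo1 sample, with a log2 fold change of 0.39 (SE 0.08, adjusted p = 0.0034 from limma), while Clic5 was lower in every one. Beside Clic6, which was near 0, Rcan1 rose from 410 ± 16.4 to 892 ± 21.3 TPM (SD, n = 4), with a log2 fold change of 1.12 (adjusted p = 1.9e-08), which was called, though under median-ratio scaling it was 0.96. Runx1, on the other side of Clic6, rose from 21.995 to 29.7 TPM, with a log2 fold change of 0.42 (adjusted p = 4.5e-04). Runx3, beside Clic4, was at a mean of 0.08 TPM in Lv-Ctrl and 0.305 in Lv-Piezo1 and was not tested.

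Rcan2 and Rcan3, named after their values were seen, had means of 61.6 and 67.4 TPM and of 2.56 and 3.74 TPM in Lv-Ctrl and Lv-Piezo1. Their log2 fold changes were 0.13, which turned to -0.03 under median-ratio scaling, and 0.41. On chromosome 5 the values of Runx3, Clic4 and Rcan3 were all higher in Lv-Piezo1, though Runx3 was near 0. On chromosome 11 Rcan1 and Runx1 rose, and Clic6 between them was near 0 in both groups. On chromosome 9 Clic5 fell, Runx2 rose, and the direction of Rcan2 depended on the scaling.

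**Figure D4:**
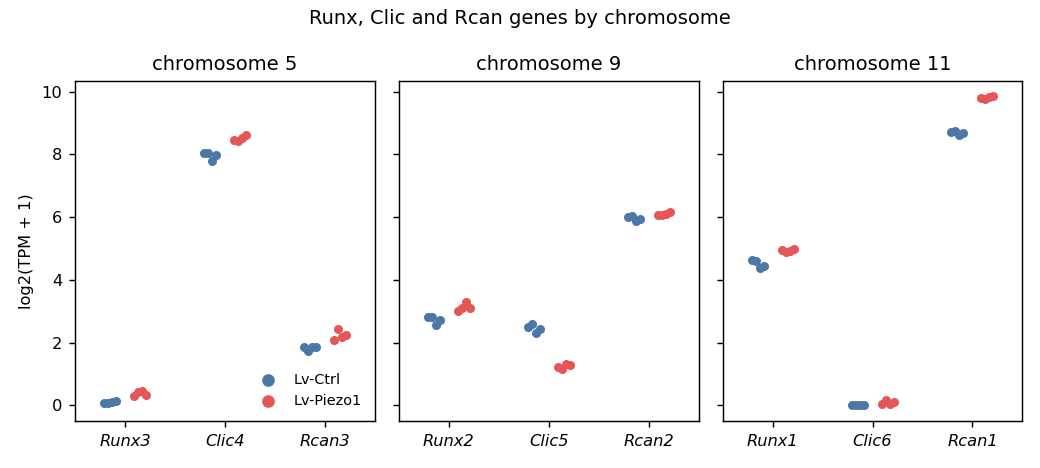
log2(TPM + 1) of each sample for the Runx, Clic and Rcan genes of chromosomes 5, 9 and 11, with 1 point per sample. On the deposited scale Clic5 is the only one of the 9 genes that is lower in Lv-Piezo1 (Rcan2 turns to -0.03 under median-ratio scaling), and Clic6 lies near 0 beside Rcan1 at 410 and 892 TPM.

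The other genes directly around the members gave a mixed picture. Sapcd1, the second gene past Clic1, rose from 16.5 ± 1.57 to 40.0 ± 3.06 TPM (SD, n = 4; log2 fold change 1.23, adjusted p = 1.4e-06 from limma), while Clic1 itself did not pass the test. Srrm1, a splicing factor gene next to Clic4, rose from 49.3 to 68.7 TPM (log2 fold change 0.47, adjusted p = 3.3e-05). Syf2 near Clic4, Ddah2 beside Clic1, and Abca2 and Paxx beside Clic3 had limma adjusted p-values of 0.11, 0.36, 0.66 and 0.12. Under median-ratio scaling Syf2 was at -0.24 on the log2 scale (limma adjusted p = 0.0036), and under quantile normalization at -0.13 (0.019). Mpig6b, Msh5, Fut7, Enpp4 and Enpp5 had means below 1 TPM in both groups, and Ptgds, Ncmap, Kcne1 and RGD1562683 were listed at 0 in every sample.

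Of 29 listed partners of CLIC proteins, 28 were in the table and 19 were tested. Only Msn was called, higher, against 7.67% of all tested genes called, and 8 were higher and 2 lower at an adjusted p below 0.05, which 58.2% of all tested genes passed (5489 higher, 2137 lower). The median log2 fold change of the 19 was 0.13, beside 0.14 over all tested genes. The split depended on scaling, with 4 higher and 6 lower under median-ratio scaling and 7 higher and 4 lower under quantile normalization.

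Msn, which encodes moesin, was at 202.7, 201.04, 152.79 and 191.62 TPM in Lv-Ctrl and at 391.57, 383.8, 420.73 and 448.85 TPM in Lv-Piezo1. The groups stood far apart, and the log2 fold change was 1.14 (SE 0.09, adjusted p = 7.6e-06 from limma), or 0.98 and not called under median-ratio scaling. Ezr, which encodes ezrin, rose from 20.8 ± 1.06 to 37.3 ± 0.598 TPM (SD, n = 4; log2 fold change 0.82, adjusted p = 5.3e-07). Rdx, which encodes radixin, had means of 20.2 and 22.7 TPM and did not pass the test (log2 fold change 0.17, adjusted p = 0.084). Moesin was thus the most abundant of the 3 linkers in both groups, and the linker transcripts differed in how far they moved.

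Tgm2, a transglutaminase that CLIC3 acts on, rose from 9.46 ± 0.793 to 18.8 ± 0.785 TPM (SD, n = 4; log2 fold change 0.92, adjusted p = 2.7e-06 from limma). Slc9a3r1, the scaffold that binds ezrin, fell without overlap, with a log2 fold change of -0.14 (adjusted p = 0.034 from limma). Trappc2, a trafficking protein that binds CLIC1, had a log2 fold change of -0.44 (adjusted p = 0.024 from limma). Its groups overlapped, and its exact two-sided permutation p was 0.057. Mapk15, the kinase linked to CLIC3, had means of 5.6 and 3.32 TPM (adjusted p = 0.07).

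Of the ryanodine receptors, the known partners of CLIC2, Ryr1 and Ryr2 were close to the floor. Ryr1 was at 0 to 0.12 TPM in Lv-Ctrl and at 0.02 to 0.08 TPM in Lv-Piezo1, and Ryr2 at 0.05 to 0.14 and 0.06 to 0.1 TPM. Neither was tested, and Ryr3 was looked for by symbol but had no matching row. Clic2 was therefore abundant in Lv-Ctrl in cells with little transcript of either receptor analysed. Drd2 and Drd3, the dopamine receptor genes listed with Clic6, and Podxl were listed at 0 in every sample.

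**Figure D5:**
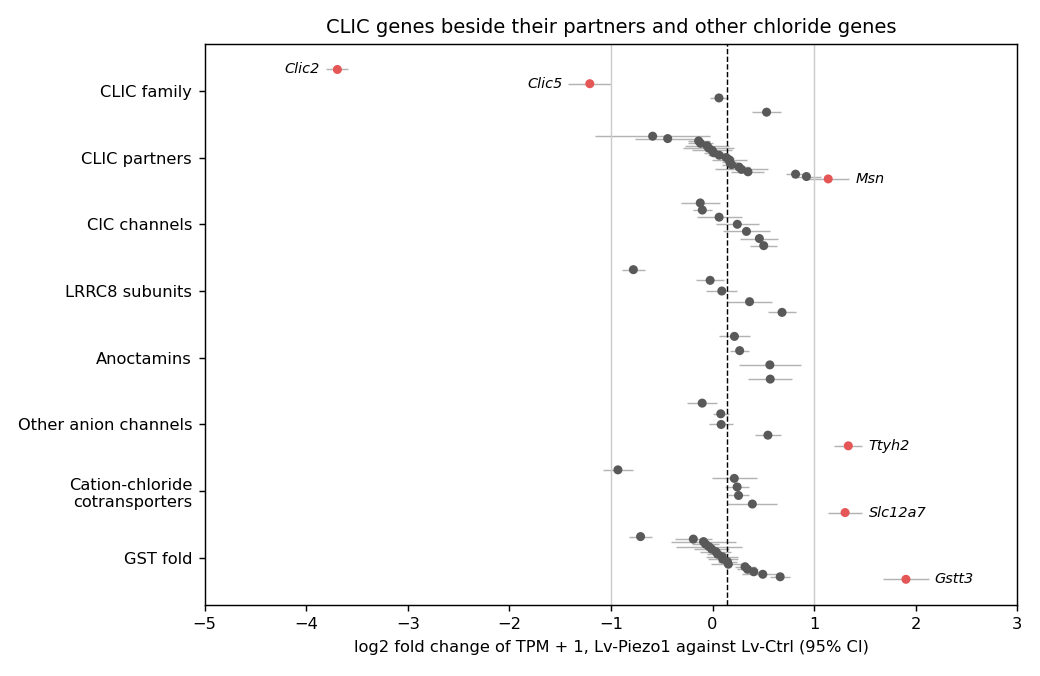
log2 fold change on the log2(TPM + 1) scale of each tested gene, Lv-Piezo1 against Lv-Ctrl, with its 95% interval, for the CLIC genes, their partners, other chloride genes and glutathione transferase fold genes, without the cell type markers; called genes are red and named, the dashed line is the median of all tested genes, 0.14, and grey lines mark the fold threshold. Clic2, whose value chose the family, and Clic5 are the only called genes drawn on the lower side, and Slc12a2 joins them at -1.09 under median-ratio scaling.

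Other chloride channels and cotransporters were listed for comparison. All 45 were in the table and 27 were tested, of which 2 were called, both higher, a share near the 7.67% of all tested genes. At an adjusted p below 0.05, 15 were higher and 2 lower, beside 58.2% of all tested genes (5489 higher, 2137 lower). The 15 include Ano1, which passed the filter only through Lv-Piezo1, with means of 0.788 TPM in Lv-Ctrl and 1.64 in Lv-Piezo1. The split of the list went to 10 and 6 under median-ratio scaling and to 9 and 6 under quantile normalization. The median log2 fold change of the 27 was 0.24, beside 0.14 over all tested genes, and with median-ratio scaling it was 0.11, beside -0.0046. Ano4, Best3, Bsnd and Cftr were listed at 0 in all samples.

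The called genes were Ttyh2, a tweety family anion channel gene, and Slc12a7, which encodes the potassium-chloride cotransporter KCC4. Ttyh2 was at 3.28, 3.16, 2.86 and 3.0 TPM in Lv-Ctrl and at 9.18, 8.99, 9.38 and 9.6 TPM in Lv-Piezo1 (log2 fold change 1.34, adjusted p = 1.9e-07 from limma). Slc12a7 rose from 5.17 ± 0.442 to 14.3 ± 1.17 TPM (SD, n = 4; log2 fold change 1.31, adjusted p = 9.2e-07). Slc12a2, which encodes the sodium-potassium-chloride cotransporter NKCC1, fell from 49.4 ± 3.89 to 25.4 ± 1.43 TPM, with a log2 fold change of -0.93 (adjusted p = 2.8e-06). Under median-ratio scaling it was -1.09 and passed the fold threshold. Slc12a2, whose product brings chloride into cells, and Slc12a7, whose product lets it out, thus moved in opposite directions.

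LRRC8 proteins form the volume-regulated anion channel, in which LRRC8A is obligatory. Lrrc8a had means of 25.7 and 25.2 TPM (log2 fold change -0.02, 95% interval -0.16 to 0.12, adjusted p = 0.77 from limma), though under median-ratio scaling it was -0.18 (adjusted p = 0.0079). Lrrc8d, whose product favours transport of organic solutes, was at 48.28, 47.23, 44.99 and 45.02 TPM in Lv-Ctrl and at 26.07, 24.62, 27.23 and 28.59 TPM in Lv-Piezo1 (log2 fold change -0.78, adjusted p = 2.1e-06). Lrrc8c rose from 5.96 to 10.2 TPM (0.68 on the log2 scale, adjusted p = 1.5e-05) and Lrrc8b from 5.36 to 7.20 TPM (0.36, adjusted p = 0.011). Lrrc8e, with means of 6.35 and 6.84 TPM, did not pass the test and changed sign with the scaling. The most abundant subunit of Lv-Ctrl, Lrrc8d, thus came to about the level of Lrrc8a in Lv-Piezo1.

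Genes of the glutathione transferase fold, which CLIC proteins share, were also listed. This list, named for the fold throughout, also held the glutaredoxin genes Glrx, Glrx2, Glrx3 and Glrx5. Of 25 listed, 23 were in the table and 18 were tested, with 1 called, beside 7.67% of all tested genes. At an adjusted p below 0.05, 7 were higher, Glrx and Glrx3 among them, and 1 lower, beside 58.2% of all tested genes. Their median log2 fold change was 0.10, beside 0.14 over all tested genes, and under median-ratio scaling it was -0.06. Gstt3 rose from 1.52 ± 0.272 to 8.41 ± 0.699 TPM (SD, n = 4; log2 fold change 1.90, adjusted p = 4.7e-07 from limma). Gsta4, which detoxifies lipid peroxidation products, fell from 162 to 98.9 TPM (log2 fold change -0.71, adjusted p = 3.7e-06). Gsto1, the omega-class enzyme closest to CLIC proteins in fold, had means of 113 and 127 TPM (adjusted p = 0.11). Reads of closely related transferase genes can be shared, so single values in this list are uncertain.

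Markers of the cell type were checked beside these results. The annulus collagen genes Col1a1 and Col1a2 were at means of 3282 and 2316 TPM in Lv-Ctrl and 5835 and 3795 in Lv-Piezo1, while the tenomodulin gene Tnmd was at 0 in Lv-Ctrl and at most 0.08 TPM in Lv-Piezo1. Of 12 annulus markers, 11 were tested and 3 called (1 higher, 2 lower), beside 7.67% of all tested genes, and the list summed to 7575 to 8541 and 11378 to 12186 TPM. The collagens carried most of that sum, and the list did not move one way. Thbs4 rose from 56.4 to 529 TPM, while Dcn, which encodes decorin, fell from 1456 to 519 TPM and Pdgfra from 194 to 74.8 TPM, all called. Fmod and Mkx, not called, had means of 68.4 and 34.0 TPM and of 25.4 and 14.6 TPM. The log2 fold change of Fmod was -0.987, and under median-ratio scaling it was -1.15 and passed the fold threshold. Of 9 nucleus pulposus and cartilage markers, 8 were in the table, with sums of 36.7 to 43.1 and 72.0 to 79.8 TPM. Acan carried most of that sum, at means of 31.6 and 47.1 TPM. Cd24 rose from 3.79 to 21.9 TPM and Comp was at means of 0.738 and 2.86 TPM. Sox9 did not pass the test, at means of 3.893 and 3.855 TPM (adjusted p = 0.94 from limma). Col2a1, Col9a1 and Matn3 were below 1 TPM in every sample, and Tbxt was at 0.

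Endothelial markers summed to 25.5 to 34.2 TPM in Lv-Ctrl and 33.9 to 39.0 in Lv-Piezo1, most of it Egfl7, with Pecam1, Cdh5 and Kdr at means of at most 0.15 TPM and Emcn at 0. Esam was at means of 0.203 and 5.68 TPM. Macrophage markers summed to 21.0 to 22.7 and 36.2 to 41.3 TPM, most of it Cd14, at means of 20.9 and 25.8 TPM. Cd68 was at means of 0.955 and 12.3 TPM. In every sample 7 of 12 were at 0, Adgre1, C1qa, C1qb, C1qc, Cd163, Laptm5 and Tyrobp. Ptprc, Csf1r and Aif1 were at no more than 0.2 TPM in any sample. Comp, Esam and Cd68 passed the filter only through Lv-Piezo1, where they were high, so no count of calls is given for these lists. Epithelial markers summed to 2.39 to 2.98 and 3.06 to 4.45 TPM, with Cdh1, Esrp1 and Krt5 at 0.

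The smooth muscle and pericyte markers moved most, from 840 to 878 TPM in Lv-Ctrl to 4663 to 4826 TPM in Lv-Piezo1. Of 13 listed, 11 were tested, 7 were called higher, beside 4.91% of all tested genes, and 2, Kcnj8 and Abcc9, lower, beside 2.76%. Acta2 went from 51.2 to 1344 TPM and Kcnj8 from 326 to 39.1 TPM. The Clic2, Clic4 and Clic5 differences stood beside this marker difference in the same samples, and its part in them was not tested.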

How the data were processed

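RNA was sequenced from 8 samples, 4 per group. The authors removed adapter, poly-N and low-quality reads, mapped the rest with HISAT2 to the rat genome and used StringTie for transcript assembly. The deposited values are TPM per gene, 1 column per sample. The group mean columns equal the arithmetic means and were not used. The submitters' processing notes name the mouse build mm10 and DESeq2, and the methods of the study name FPKM, while 30560 of 31699 identifiers are rat Ensembl genes. These sources do not settle the build behind the table. TPM keeps no depth, so depth is unknown and precision rests on the spread between samples.

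From the deposited TPM, log2(TPM + 1) was compared for the 13103 genes whose mean TPM reached 1, with limma 3.58.1 in R 4.3.3 (trended empirical Bayes, Benjamini-Hochberg over all tested genes, calls at an adjusted p below 0.05 with a log2 fold change of 1 or more in either direction), without a block. Single genes also had an exact two-sided permutation test over 70 relabelings.

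The members and lists were chosen with earlier results of these data known. Named genes were the members, Piezo1, the nearest profiles (5 for Clic2, 3 for each other tested member), up to 4 called rises and 4 falls per list, the 2 protein-coding neighbours on each side, and Ryr, ezrin-family and Lrrc8 genes. Motifs, the Rcan genes and the chromosome 20 order were chosen after values were seen, as were other genes named. Promoters and gene order came from RefSeq, build GRCr8, matched by symbol. Alternatives were other scalings, pseudocounts, filters and moderation, the replicate block, no fold threshold and leaving out each sample.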

Additional observations from a re-analysis of the deposited data

Results flagged for a closer look

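Clic3 in Lv-Ctrl replicate 4 was at 0.11 TPM, away from the 0.23 to 0.25 TPM of the other samples of its group. Its gap to the nearest sample was 0.857 of the group's range, above Dixon's critical value for groups of this size. It was the 1 such value among 13 groups of 4 looked at, where chance gives about 1 in 20, and all values lay close to the floor of the table.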

How the results depend on the processing

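The limits are those of 4 samples per group and of TPM without depth. A mean of at least 5 TPM left 3 members tested and 1 called (Clic2, whose fall chose the family). It left no called glutathione transferase fold gene (0 in limma, with 8 at an unadjusted p below 0.05, since Gstt3 was not tested). Of all genes, 628 were called in place of 1005. Median-ratio scaling left 0 partner genes called in limma (11 at an unadjusted p below 0.05), as Msn came to 0.98, and reversed Clic1, from 0.06 to -0.10. It also moved the split of calls over all genes from 644 higher and 361 lower to 514 and 468, and quantile normalization to 463 and 485. Without the fold threshold the calls were 3 members (Clic2, which carries no test, Clic4 and Clic5) and 10 partners. They were also 17 chloride genes (Ano1 among them), 8 glutathione transferase fold genes and 7626 of all genes. Leaving out each sample in turn gave 2 members (Clic2, which carries no test, and Clic5), 1 partner, 2 chloride genes and 1 fold gene throughout. It gave 1006 to 1030 of all genes, and Piezo1 at 0.33 to 0.43. Clic2 stayed between -3.85 and -3.67 and Clic5 between -1.64 and -1.16 in all alternatives that gave a value. Among these, the filters, moderation and replicate block cannot move a log2 fold change.

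The study describes 4 biological repeats that received either treatment, so the groups may share cell isolations. Replicate numbers did not recover such a match, since same-numbered deviations correlated at -0.058 to -0.012 and none matched its own number best. A match in another order was not tested, and the main comparison had no block. With the replicate block, 2 members (Clic2, which carries no test, and Clic5), 1 partner, 2 chloride genes, 1 fold gene and 1004 of all genes were called. The block cannot move a log2 fold change in this balanced design, so Piezo1 stayed at 0.38. The SE of Piezo1 went from 0.065 to 0.074 and its limma adjusted p from 8.6e-04 to 0.0068.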
